A study of Mus musculus with 2 samples.

Results

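The cells described here carried at least 1 unique molecular identifier (UMI, the tag that marks 1 captured transcript) in 2 or more somite and sclerotome marker genes, namely Pax1, Uncx, Tcf15, Meox1 and Foxc2, and no UMI in any of the dermomyotome, muscle, epithelial, neural crest or neural genes Myf5, Myog, Pax7, Lbx1, Dmrt2, Epcam, Sox10 and Sox1. Nkx3-2, which the rule also names, was not analysed here. The rule was met by 523 of 21723 cells, of which 285 came from the WT library of 11958 cells and 238 from the KO library of 9765 cells. The cells were chosen by the UMI counts of these genes, so their levels in the chosen cells are given as a description and test nothing.

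Somites are blocks of paraxial mesoderm on both sides of the neural tube. An epithelial somite expresses Tcf15 (paraxis) and Meox1, and its ventral part then loses its epithelial order, forms the sclerotome and gives rise to vertebrae and ribs. Hedgehog signals from the notochord and floor plate sustain Pax1 and its paralogue Pax9 in the sclerotome, Uncx marks the posterior part of each somite and Tbx18 the anterior part, while the dorsal part remains as the dermomyotome, the source of muscle and dermis.

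To examine the effect of losing Prdm6, a histone methyltransferase of the PRDM family, in the neural crest, the study dissected E9.5 mouse tissue (strain C57BL/6) that began at the level of the otic placode and ended behind the fourth somite, and sequenced single cells from 3′ ends of transcripts. The WT group was Prdm6+/+; Wnt1-Cre2; ZsGreen1 and the KO group was Prdm6f/f; Wnt1-Cre2; ZsGreen1, with 1 library each. Both groups carried the Wnt1-Cre2 driver and the ZsGreen1 reporter. Wnt1-Cre2 acts in the Wnt1 lineage, to which neural crest belongs and paraxial mesoderm does not, so that by design it does not target somite cells. Recombination was not checked in the chosen cells, and whether some of them belong to the Wnt1 lineage was not tested. By GENCODE vM21 (GRCm38), Pax1 spans 147361925 to 147393295 and Tcf15 152143561 to 152149097 on chromosome 2, Uncx 139543494 to 139548179 on chromosome 5, Foxc2 121116171 to 121118895 on chromosome 8 and Meox1 101877510 to 101894374 on chromosome 11. The labels call the cells cardiac neural crest cells, whereas no sorting is stated and no cell was assigned to an embryo here. The WT library held 20781384 UMIs and the KO library 18936857. Members held 554582 UMIs in WT and 517052 in KO, with a median of 1895 and 2123 UMIs per cell, against 1597 and 1703 over all cells. With 1 library per genotype there is no replicate check and no test was run. Every interval is a 95% interval that covers counting error only.

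The members made up 2.38% of WT cells (exact binomial interval 2.12 to 2.67) and 2.44% of KO cells (2.14 to 2.76). The shares differed between KO and WT by a log2 ratio of 0.03 (−0.21 to 0.28). A rule that asks for UMIs finds more cells where cells are deeper, so the rule was also applied after 1000 UMIs had been drawn from every cell. Cells shallower than that, 1361 in WT and 125 in KO, were dropped. At this equal depth 128 of 10597 WT cells (1.21%) and 105 of 9640 KO cells (1.09%) met the rule, and the log2 ratio was −0.15 (−0.52 to 0.22). The 2 libraries shared 26 cell barcodes, none of them from a member.

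The rule rested on few molecules. Of the members, 246 in WT and 215 in KO held exactly 2 markers, and 185 in WT and 154 in KO held exactly 2 marker UMIs. To gauge how much of this could be free RNA, the markers were counted in globin-rich cells, in which 5% or more of UMIs came from globin genes. Erythroid cells should express no somite gene, but whether all globin-rich cells were erythroid was not tested. The mesenchymal gene Twist1 had a UMI in 15.3% of them in WT and 14.5% in KO, against 25.5% and 28.5% of all cells. The median depth of globin-rich cells was 2020 UMIs in WT and 2453 in KO. Meox1, a homeobox gene of the early somite, had a UMI in 10.1% of all WT cells and in 4.44% of globin-rich WT cells, and in 11.8% and 10.5% in KO. For Foxc2, a forkhead gene of somites and head mesenchyme, the shares were 7.80% and 3.73% in WT and 9.29% and 3.18% in KO. Pax1 was found in 2.84% of all WT cells against 1.42% of globin-rich ones, and in 2.81% against 1.82% in KO. Tcf15 was found in 4.59% against 2.31% in WT and in 4.49% against 1.82% in KO, and Uncx in 1.27% against 0.533% and in 1.07% against 0.909%. For Meox1 and Foxc2 in WT and Foxc2 in KO the share in globin-rich cells had an interval wholly below that of all cells, as it did for Tcf15 in WT, whereas for Meox1 in KO it held the share of all cells. The intervals of all cells and globin-rich cells overlapped for Pax1 and Uncx in both libraries and for Tcf15 in KO. The full rule was met by 4 of 563 globin-rich cells in WT (0.710%, interval 0.194 to 1.81) and by 2 of 220 in KO (0.909%, 0.110 to 3.25). At equal depth these numbers were 1 of 554 in WT and 0 of 217 in KO, which allows a share of up to 1.38% by a limit of 3 counts and 1.69% by the exact binomial interval.

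**Figure D1:**
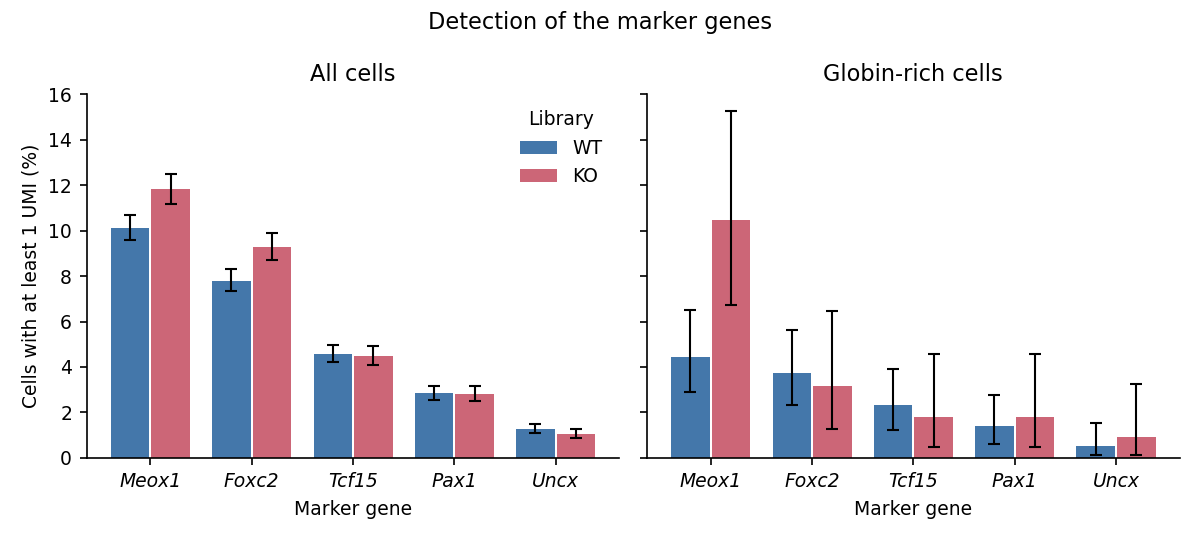
Percentage of cells with at least 1 UMI of each marker gene, in all cells (left) and in globin-rich cells (right), for the WT and KO libraries, with exact binomial 95% intervals as error bars. In WT each marker had a lower share in globin-rich cells than in all cells; Meox1 in KO stood at 10.5% in globin-rich cells and 11.8% in all cells.

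Some marker pairs were found together more often than the single shares would give, and others were not. Among WT cells with Tcf15, a basic helix-loop-helix gene of the epithelial somite, 28.2% (interval 24.5 to 32.2) also had Meox1, against 10.1% of all WT cells. The KO share was 22.4% (18.6 to 26.6), against 11.8% of all KO cells. Uncx, a homeobox gene of the posterior somite, went with Tcf15 in 28.3% of WT cells that had it (21.3 to 36.2) and in 12.5% of KO cells (6.83 to 20.4), against 4.59% and 4.49% of all cells. Foxc2 was found in 11.6% of WT cells with Meox1 (9.89 to 13.6) and in 10.7% of KO cells with Meox1 (9.02 to 12.7), against 7.80% and 9.29% of all cells, and the KO interval held the share of all KO cells. It was also the most frequent pair: 74 WT and 78 KO members held Meox1 and Foxc2 and no other marker. Tcf15 with Meox1 followed with 44 and 35 members, Tcf15 with Foxc2 with 36 and 28, Pax1 with Meox1 with 31 and 23, and Pax1 with Foxc2 with 24 and 19. Depth differs between cells and raises every pair, and its part in these shares was not tested.

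**Figure D2:**
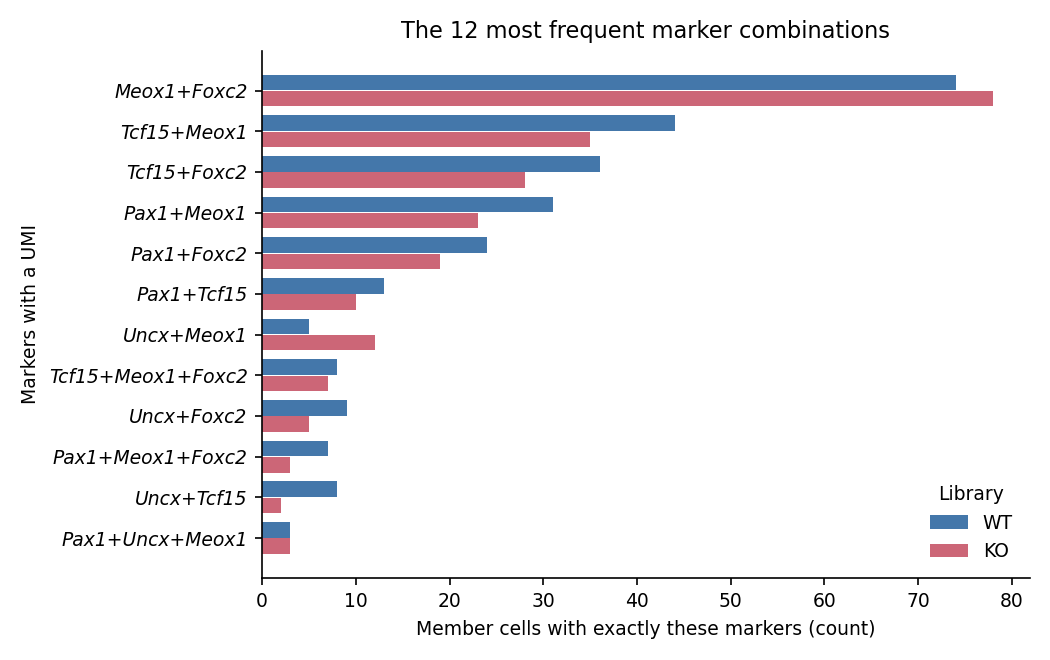
Number of member cells (horizontal axis) that held exactly the markers named on the vertical axis, for the 12 most frequent combinations in the WT and KO libraries. Meox1 with Foxc2 led in both libraries with 74 WT and 78 KO members.

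Of the 445 WT and 355 KO cells with 2 or more markers, 160 and 117 were set aside because of an excluded gene. Myf5, the first myogenic regulator of the somite, was found in 94 of the WT and 52 of the KO cells set aside. Dmrt2, a dermomyotome gene, was found in 32 and 22, Sox1, a neural progenitor gene, in 37 and 24, and Epcam, an epithelial adhesion gene, in 8 and 23. Sox1 also had a UMI in 7.64% of globin-rich WT cells and 5.00% of globin-rich KO cells, against 9.75% and 9.71% of all cells. The part of free RNA in the exclusion was not tested.

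The label of sclerotome and unsegmented somite was then checked on genes outside the rule. For genes outside the rule, members were compared with all other cells of their own library as the log2 ratio of UMIs per 1000000 UMIs (CPM), with 10 CPM added to each side, over 4359 genes with at least 50 UMIs in members. A gene was counted as higher or lower where the ratio passed 2-fold in both libraries. This was the case for 8 genes higher (0.184%) and 4 lower (0.0918%). Of 9 sclerotome genes not used by the rule, 6 reached 50 UMIs. None of them was past 2-fold in both libraries, and 5 of 6 lay above 0 in both, against 35.3% of all genes. Their median log2 ratio was 0.67 in WT and 0.55 in KO, against 0.03 and 0.02 over all genes. Foxc1, the paralogue of Foxc2, was the highest of them in WT with 225 CPM in members against 77.6 in other cells (log2 1.43). In KO the values of Foxc1 were 145 against 88.1 CPM (log2 0.66). Twist1, a mesenchymal transcription factor, stood at 451 against 199 CPM in WT (log2 1.14) and 362 against 197 in KO (log2 0.84). Sox9, which drives cartilage formation, stood at 469 against 257 CPM in WT (log2 0.84) and 333 against 223 in KO (log2 0.55). Sfrp2, a secreted Wnt antagonist, lay slightly below 0 in both (log2 −0.15 and −0.04).

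The list of 14 somite and paraxial mesoderm genes, which shares Foxc1 and Meox2 with the sclerotome list, summed to 579 CPM in WT members against 371 in other cells (log2 0.64) and to 453 against 351 in KO (log2 0.37). Its 3 genes with 50 UMIs, Foxc1, Pax3 and Eya1, lay above 0 in both libraries, Pax3 by only 0.0031 and 0.041. Foxc1 held 125 of the 321 UMIs of the list in WT members and 75 of 234 in KO.

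Paralogues of the markers were sparse. Pax9, the closest relative of Pax1, had 12 UMIs in 285 WT members (21.6 CPM, exact Poisson interval 11.2 to 37.8) and 5 in 238 KO members (9.67 CPM, 3.14 to 22.6), against 7.61 and 8.41 CPM in other cells. Meox2, the paralogue of Meox1, had 46.9 CPM in WT members and 38.7 in KO members, against 12.2 and 11.7 in other cells. In WT the intervals of both genes in members lay above the level in other cells. In KO this held for Meox2, while the interval of Pax9 held that level. Of the presomitic mesoderm genes, Tbx6 had 0 UMIs in WT members and 2 in KO members, Mesp2 had 0 in both, and Hes7 had 1 in WT and 0 in KO. The defining genes of unsegmented paraxial mesoderm were thus at or near 0, and that side of the label was not borne out. The presomitic list as a whole was nonetheless higher in members, at 146 CPM against 90.5 in other WT cells and 132 against 72.8 in KO. Most of its UMIs came from Rspo3, a secreted Wnt agonist (33 in WT and 23 in KO), and Dusp6, a phosphatase induced by FGF signalling (37 and 25), both of which are used in other tissues as well. Chondrogenic genes, a list that shares Sox9 and Col2a1 with the sclerotome list, were above 0 in both libraries for 4 of 5 genes, among them Vcan, a large proteoglycan (log2 0.70 and 0.56), and Col2a1, the main cartilage collagen (log2 0.45 and 0.27). Scx, the tendon progenitor gene, had 3 UMIs in WT members and 0 in KO members.

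The 8 genes higher in members in both libraries included none of the sclerotome list. Foxd1, a forkhead gene of mesenchyme, led with 426 CPM in WT members against 109 in other WT cells (log2 1.87) and 259 against 96.5 in KO (log2 1.34). Fst, which encodes the activin and BMP antagonist follistatin, had 166 against 64.9 CPM in WT and 168 against 64.2 in KO. The receptors for platelet-derived growth factor were both among the 8: Pdgfra had 274 against 130 CPM in WT and 226 against 107 in KO, and Pdgfrb 75.7 against 28.9 in WT and 75.4 against 28.8 in KO. Col3a1, a fibrillar collagen of loose mesenchyme, had 454 against 188 CPM in WT and 302 against 144 in KO. Stra6, the receptor for retinol-binding protein (log2 1.05 in WT and 1.15 in KO), and Nrp2, a semaphorin co-receptor (1.02 and 1.37), were also among the 8. The 4 lower genes were the globins Hbb-bh1, Hbb-y, Hba-a1 and Hba-a2. The number of higher genes was 0 with cells drawn to 1000 UMIs, 2 without members that held 2 or more markers of 1 other cell type (erythroid and cardiac lists aside), and 13 without Meox1 in the rule. The gate on other cell types left 114 WT and 100 KO members. It also dropped cells by the head mesoderm list given next, so the lower number under it is in part built in. Pharyngeal and head mesoderm genes, a list of 9 that holds Foxd1 and Stra6, summed to 1013 CPM in WT members against 486 in other cells (log2 1.06) and 650 against 373 in KO (log2 0.80), and 4 of the 4 that reached 50 UMIs lay above 0 in both libraries. Members with UMIs in 2 or more genes of this list numbered 109 of 285 in WT (38.2%, against 13.6% of other cells) and 68 of 238 in KO (28.6%, against 11.5%). For these reasons the cells are called double-marker cells by their rule, and no single cell type is given to them.

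Several genes outside the rule were graded with the number of markers. In cells without an excluded gene and with 0, 1, 2 and 3 or more markers, Foxd1 had 97.9, 195, 414 and 488 CPM in WT and 90.6, 154, 235 and 447 in KO. Aldh1a2, which makes retinoic acid in the somite, had 42.3, 64.1, 89.3 and 369 CPM in WT and 39.3, 56.0, 69.7 and 172 in KO. The step from 2 to 3 or more markers in Aldh1a2 was from an interval of 64.3 to 121 CPM to one of 251 to 524 in WT, and from 47.7 to 98.5 to 82.4 to 316 in KO, where the intervals overlapped. Twist1 had 198, 267, 440 and 512 CPM in WT, and Sox9 195, 262, 436 and 655. Sox9 in KO had 166, 217, 290 and 670 CPM. The cells just inside the threshold, with 2 markers, had values between those with 1 and those with 3 or more for each of these genes. The groups with 3 or more markers were small, with 39 cells in WT and 23 in KO, and the step from 2 to 3 or more was not resolved for Foxd1 in WT (358 to 477 and 350 to 662 CPM) or Twist1 in WT (382 to 504 and 370 to 689), whose intervals overlapped widely. Tnnt2, the cardiac troponin T gene, ran the other way, with 340, 218, 138 and 59.5 CPM in WT and 297, 224, 176 and 51.5 in KO. Other genes did not follow the grade throughout. Pdgfra in WT had 140, 180, 276 and 262 CPM, and Pax9, the paralogue of Pax1, in KO had 6.72, 9.17, 6.54 and 34.4 CPM, with 3 and 2 UMIs in the last 2 groups. Tbx18 had 34.5, 38.2, 42.5 and 11.9 CPM in WT, the last from 1 UMI (interval 0.301 to 66.3), so that a grade was not resolved.

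**Figure D3:**
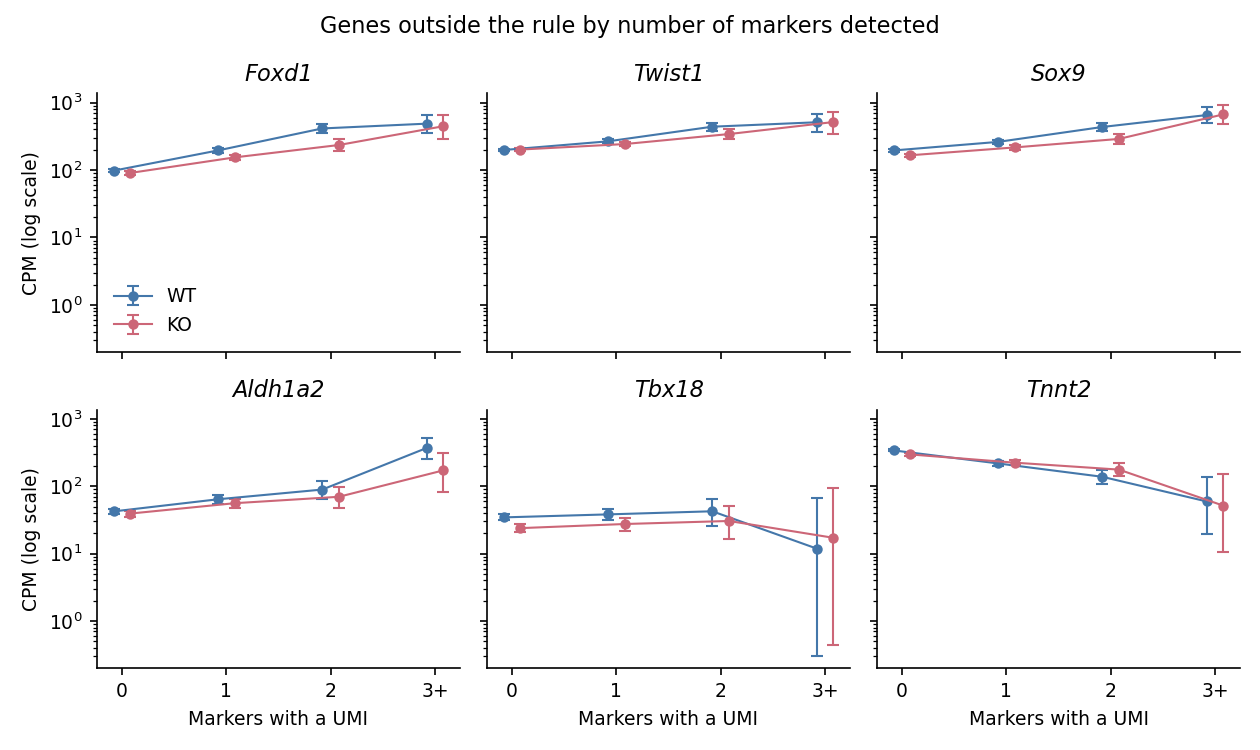
CPM on a log scale against the number of marker genes with a UMI, for 6 genes outside the rule in cells without an excluded gene, in the WT and KO libraries, with exact Poisson 95% intervals. Foxd1, Twist1, Sox9 and Aldh1a2 were higher with more markers in both libraries, and Tnnt2 was lower, from 340 to 59.5 CPM in WT.

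Foxd1 and Aldh1a2 carried this grade without being in the rule, and their promoters are shown as reference sequence from RefSeq (GRCm38.p6), 240 bases on the plus strand that end before the annotated start of the gene. The Foxd1 window is chr13:98353995-98354234 and ends 8 bases before the gene, and the Aldh1a2 window is chr9:71215539-71215778 and ends 11 bases before it. Capitals mark matches on either strand to CANNTG (E-box, the site type of basic helix-loop-helix factors such as Twist1 and Tcf15), AGGTCA (a retinoid receptor half-site), GACCACCCA (the site of the hedgehog effectors of the GLI family), CCAAT (bound by the NF-Y complex), TATAAA (the box near many start sites) or GGGCGG (bound by Sp factors).
Foxd1: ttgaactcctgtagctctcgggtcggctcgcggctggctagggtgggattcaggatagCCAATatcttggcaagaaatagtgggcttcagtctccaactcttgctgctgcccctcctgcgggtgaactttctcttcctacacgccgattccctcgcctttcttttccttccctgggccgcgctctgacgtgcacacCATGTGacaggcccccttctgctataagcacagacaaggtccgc
Aldh1a2: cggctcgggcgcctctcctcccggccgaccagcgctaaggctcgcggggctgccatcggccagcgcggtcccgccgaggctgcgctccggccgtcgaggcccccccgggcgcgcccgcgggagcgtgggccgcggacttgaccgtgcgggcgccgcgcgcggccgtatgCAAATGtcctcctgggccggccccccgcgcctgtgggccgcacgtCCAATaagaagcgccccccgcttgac
Each window held 1 CANNTG and 1 CCAAT match and 0 of the other letters. CANNTG was present in 65.0% of 32817 mouse promoter windows of the same length and CCAAT in 33.0%, so that both matches are common. AGGTCA was present in 13.5% of the windows and GACCACCCA in 0.222%. A missing match says only that these letters are not in the window.

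The double-marker cells were set beside 2 like groups of cells. The first comprised 119 WT and 67 KO cells that had 2 or more markers and also a dermomyotome or muscle gene. Pax3, a dermomyotome gene outside the rule, had 451 CPM in these WT cells and 376 in KO, against 61.3 and 58.0 CPM in members. Stra6 had 444 and 409 CPM there against 117 and 104 in members. Sox9 was lower there, with 104 and 120 CPM against 469 and 333 in members. Foxd1 had 264 and 229 CPM there against 426 and 259 in members, with overlapping intervals in KO. Foxc1 had 135 and 202 CPM against 225 and 145, and Meox2 41.6 and 49.1 against 46.9 and 38.7. Aldh1a2 had 153 and 98.1 CPM against 132 and 81.2. None of Foxc1, Meox2 and Aldh1a2 was higher in members in both libraries. The rule removed cells with a dermomyotome gene from the members and put them in this group, so the difference in Pax3, and in genes that go with it, is in part built in. The second group, chosen after these genes had been seen to lead, comprised 186 WT and 134 KO cells that had UMIs of both Foxd1 and Stra6 but fewer than 2 markers. Ptch1, the hedgehog receptor and target, had 643 and 716 CPM there, against 620 and 656 in members and 432 and 436 in all other cells. Aldh1a2 had 168 and 116 CPM there against 132 and 81.2 in members, and Twist1 342 and 445 against 451 and 362. No order between members and this group held in both libraries for Twist1.

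Members also varied among themselves. Members with Pax1 and neither Tcf15 nor Meox1 (26 WT and 22 KO cells) were compared with members that had Tcf15 or Meox1 but no Pax1 (181 and 165 cells). Of 3505 genes, 6 (0.171%) were past 2-fold higher in the Pax1 cells in both libraries and 44 (1.26%) past 2-fold lower. Aldh1a2 was among the higher genes, with 259 against 76.7 CPM in WT (13 and 27 UMIs) and 186 against 57.7 in KO (9 and 21 UMIs). Dqx1 was the highest, with 11 against 20 UMIs in WT and 26 against 35 in KO, and the others were Smyd2, Txndc12, Lrp4 and Creb3l2. Up to 14 of the Dqx1 UMIs of the KO members lay in 1 cell. The lower genes rested on very few UMIs: Trappc2l, Fam208a and Atf6b had 0 UMIs in the Pax1 cells of both libraries, and Ankrd1, a cardiac muscle gene, had 0 in WT and 1 in KO, against 44 and 45 in the other cells. One UMI was worth 19.9 CPM in the WT cells with Pax1. With at least 100 UMIs asked of a gene, 0 were higher and 5 lower.

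A wider split, added after the data were seen, compared all members with Pax1 (95 WT and 68 KO cells) with those without it. It gave 3 higher genes of 4359 (0.0688%), which were Tulp3, Aldh1a2 and Hspa13, and 0 lower (0.0%). Aldh1a2 had 242 CPM in WT members with Pax1 against 75.9 in those without, and 141 against 58.6 in KO. Tulp3, a negative regulator of hedgehog signalling, had 86.1 against 32.5 CPM in WT and 98.7 against 32.0 in KO. Members with Tcf15 (125 and 90 cells) had 1 higher gene (0.0229%), Pax3, with 93.6 against 35.6 CPM in WT and 93.3 against 35.1 in KO. They had 10 lower genes (0.229%), among them the muscle genes Ankrd1, Myl4, Myl7, Tnni1, Acta2 and Ttn. Myl7, an atrial myosin light chain, had 195 CPM in WT members with Tcf15 against 550 without, and 187 against 986 in KO. These counts rested on few cells: members with 10 or more cardiac or endothelial UMIs numbered 3 with and 8 without Tcf15 in WT, and 2 and 11 in KO. Without them, 0 of 4146 genes were past 2-fold lower in both libraries, and Myl7 had 186 against 254 CPM in WT and 193 against 283 in KO, whereas Pax3 remained past 2-fold higher.

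Uncx is expressed in the posterior part of the somite, and 40 WT and 31 KO members had a UMI of it. In these members 5 genes (0.115%) were past 2-fold higher in both libraries and 22 (0.505%) past 2-fold lower than in members without Uncx. Aldh1a2 led the higher genes with 339 against 95.3 CPM in WT (28 and 45 UMIs) and 308 against 48.7 in KO (20 and 22 UMIs). It was followed by Aldh9a1, an aldehyde dehydrogenase, Reps1, Tspan5 and Uck2. Kdr, an endothelial receptor, had 0 UMIs in the Uncx members of both libraries and 27 and 28 UMIs in the other members, and the next lower genes were Elp3, Idh3b, Zfp622 and Clmp. Tbx18, the gene of the anterior part, had 0 UMIs in WT Uncx members against 21 in the other members, but 3 against 12 UMIs in KO (46.1 against 26.5 CPM), so that the libraries went opposite ways, with overlapping intervals in each. With 50 CPM added to each side, 1 gene was higher in Uncx members and 1 lower. The members whose only markers were Meox1 and Foxc2 had 3 lower genes (0.0688%), Aldh1a2, Satb1 and Srsf4. Aldh1a2 had 48.0 CPM in these WT cells against 162 in the other members, and 34.3 against 105 in KO. Aldh1a2 thus followed Pax1 and Uncx among the members and was low in members with Meox1 and Foxc2 alone. These splits overlap in cells, and the part of free RNA in them was not tested.

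Marker lists of other cell types were counted in the members. Of 9 cardiac muscle genes, all 6 that reached 50 UMIs lay below 0 in both libraries, against 25.6% of all genes, and the list summed to 1181 CPM in WT members against 2829 in other cells and to 1654 against 2390 in KO. Much of it lay in few cells. In each library 7 members had 10 or more UMIs of the list, and they held 44.3% of its UMIs in WT and 58.4% in KO, with up to 83 and 148 UMIs in 1 cell. The endothelial list of 9 genes summed to 279 CPM in WT members and 346 in KO members, against 288 and 261 in other cells, and 4 WT and 6 KO members had 10 or more of its UMIs. Endoderm genes summed to 54.1 and 61.9 CPM against 158 and 131, and surface ectoderm genes to 119 and 85.1 against 227 and 196. Neural crest genes summed to 222 and 226 CPM against 331 and 334, and neural tube genes to 362 and 398 against 539 and 543. Notochord and floor plate genes stood at 57.7 and 60.0 against 112 and 89.1, nephric genes at 37.9 and 48.4 against 96.0 and 82.7, neuron genes at 146 and 133 against 198 and 213, lateral plate genes at 252 and 267 against 455 and 343, and macrophage genes at 1.80 and 3.87 against 9.39 and 15.9 CPM. The rule left out cells with Epcam, Sox10 or Sox1, which the other cells keep, so the lower sums of the surface ectoderm, endoderm, neural crest and neural lists are in part fixed by it. In WT the intervals of the ratios for the endothelial list (log2 −0.042, −0.28 to 0.19) and the macrophage list (upper limit 0.11) held 0. In KO the endothelial list was higher in members (log2 0.41, 0.19 to 0.63), and the macrophage list was lower (−2.04, −5.09 to −0.17). Cells with 2 or more endothelial genes made up 9.24% of KO members against 5.93% of other KO cells. In WT these shares were 5.96% and 6.30%. The erythroid list summed to 5184 CPM in WT members and 2785 in KO members, and only 1 WT and 6 KO members had none of its UMIs.

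The pathways that pattern the somite were examined as lists, beside all 4359 genes, of which 35.3% lay above and 25.6% below 0 in both libraries. Past 2-fold higher in both were 0.184% of all genes. Of 14 hedgehog receptors and targets, 5 reached 50 UMIs, and 1 lay above and 1 below 0 in both libraries. Ptch1 was the most abundant with 620 CPM in WT members and 656 in KO members (log2 0.51 and 0.58 over other cells). Gli1, a direct hedgehog target, had 14 and 7 UMIs. In the retinoic acid list, 2 of 6 genes lay above and 3 below 0 in both libraries. Its sum was lower in members than in other cells (log2 −0.56 in WT and −0.44 in KO). Stra6 was the 1 gene past 2-fold higher, and Aldh1a2 stood at log2 1.35 in WT and 0.91 in KO. Crabp1, a retinoic acid-binding protein, had 786 and 1056 CPM in members against 1529 and 1673 in other cells. In the list of PDGF, Eph and semaphorin genes, 7 of 11 lay above 0 in both and 3 were past 2-fold. General matrix genes lay above 0 in both libraries for 8 of 10, with Col4a1, a basement membrane collagen, at 784 CPM in WT members and 768 in KO members. In the Wnt list 6 of 9 lay above 0 and 2 below 0, in the FGF list 2 and 1 of 5, in the Notch list 3 and 1 of 6 and in the BMP list 1 and 1 of 4, with Fst past 2-fold in the last. The S phase list had 10 of 36 above and 15 below 0, and the G2 and mitosis list 13 of 43 above and 12 below, with sums of 5965 and 10130 CPM in WT members against 6172 and 10287 in other cells.

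To compare the genotypes, UMIs of the members were summed per library. Prdm6, the targeted gene, had 1 UMI in WT members and 1 in KO members (103 and 58 in other cells), so its level in members was not measurable at this depth, and UMIs from the 3′ end do not separate a deleted from an intact allele. The markers chose the cells, so their levels are a description. Pax1 had 120 UMIs in WT members (216 CPM) and 78 in KO members (151 CPM). Uncx had 103 and 69.6 CPM, Tcf15 258 and 211, Meox1 409 and 383, and Foxc2 361 and 367.

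Genes of the sclerotome list were lower in KO members in sum, at 1859 CPM in WT and 1483 in KO (log2 −0.33, −0.46 to −0.19), against −0.08 in other cells. Foxc1 had 125 UMIs in WT and 75 in KO (log2 −0.64, −1.07 to −0.21) but 0.18 in other cells, a difference of −0.82 (−1.24 to −0.39). Sox9 stood at log2 −0.50 (−0.78 to −0.21; other cells −0.20), and Twist1 at −0.32 (−0.60 to −0.04; other cells −0.01). None of the 6 genes with 50 UMIs was past 2-fold. Without members that had 2 or more markers of 1 other cell type (erythroid and cardiac lists aside), the list was at −0.079, and with 3 or more markers asked it was at −0.081. The somite and paraxial mesoderm list was at −0.35 (−0.60 to −0.11), against −0.081 in other cells. Foxd1 had 236 and 134 UMIs (log2 −0.72, −1.03 to −0.40), against −0.18 in other cells (difference −0.54, −0.86 to −0.22). The head mesoderm list as a whole was at −0.64 (−0.84 to −0.44), against −0.38 (−0.43 to −0.34) in other cells, and at −1.26 (−1.76 to −0.78) after 1000 UMIs had been drawn from every cell. It held Dlk1, a Notch-family ligand, which was past 2-fold lower (334 and 157 CPM, log2 −1.09).

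Over 4364 genes with at least 50 UMIs in members, 14 were past 2-fold higher in KO (0.321%) and 22 past 2-fold lower (0.504%). The median log2 ratio was −0.00, and the 5th and 95th percentiles were −0.60 and 0.53. Of these 36 genes, 6 were past 2-fold in the same direction in all other cells, and 24 had a difference between members and other cells whose interval excluded 0, against 8.04% of all genes. They were picked for their ratio in members, so a gap from other cells is in part built in and nothing is read from that count. The histone genes Hist1h2ae (54.1 and 195 CPM, log2 1.85) and Hist1h1b (50.5 and 178 CPM, 1.82) had like ratios in other cells, 1.71 and 1.82. The noncoding RNA Gm42418, whose locus overlaps ribosomal RNA sequence, did so too (1.16 and 1.20). Ptk7, a Wnt co-receptor of planar cell polarity, was lowest at 299 and 98.6 CPM (log2 −1.60, −2.08 to −1.14), with −1.22 in other cells.

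The remaining genes past 2-fold are given with their values in other cells as a description. Mospd1 had 18 UMIs in WT members and 53 in KO members (log2 1.66, 0.86 to 2.52; other cells 0.12). Cbfa2t3, a corepressor of blood and endothelial cells, had 13 and 38 UMIs (1.65, 0.71 to 2.68; other cells −0.12), found in 12 and 23 members. Crip1, a LIM-domain gene, had 22 and 62 UMIs, of which up to 8 lay in 1 KO member. Mia2 (log2 1.20), Dqx1 (1.12), Sucla2 (1.10) and Dtnb (1.06) followed. Dqx1 lay in 14 WT and 18 KO members, with up to 14 UMIs in 1 KO cell, and its sign turned without Foxc2 in the rule (−0.35, −1.74 to 0.96). Among the lower genes, Zc3hc1 had 56 and 18 UMIs (log2 −1.54, −2.39 to −0.75; other cells −0.26), and Myc, a proliferation regulator, 42 and 14 UMIs (−1.48, −2.47 to −0.58; other cells −0.57). Wdr18, a ribosome biogenesis factor, had 85 and 35 UMIs (−1.18, −1.79 to −0.60; other cells −0.16). Mrps30 (−1.34), Ifrd2 (−1.26), Gid8 (−1.20), Sec24a (−1.19), Gpc6 (−1.17), Ly6e (−1.14) and Nfyc (−1.13) followed. At 100 UMIs per gene 7 genes were higher and 5 lower, and without members that held markers of another cell type, as above, 9 and 10. None of the genes named here belonged to the sclerotome or somite lists. Xist, the X-inactivation RNA, and its antisense partner Tsix (log2 1.49), which overlaps it on the opposite strand, were also among the higher genes. The strand setting used to count reads is not given. Xist had 64 UMIs in WT members and 209 in KO members (log2 1.81; other cells 1.05), whereas Ddx3y, a Y-linked gene, had 29 and 16 (−0.76; other cells −1.02), and the sex make-up of the pooled embryos, which is not known here, cannot be told apart from genotype.

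**Figure D4:**
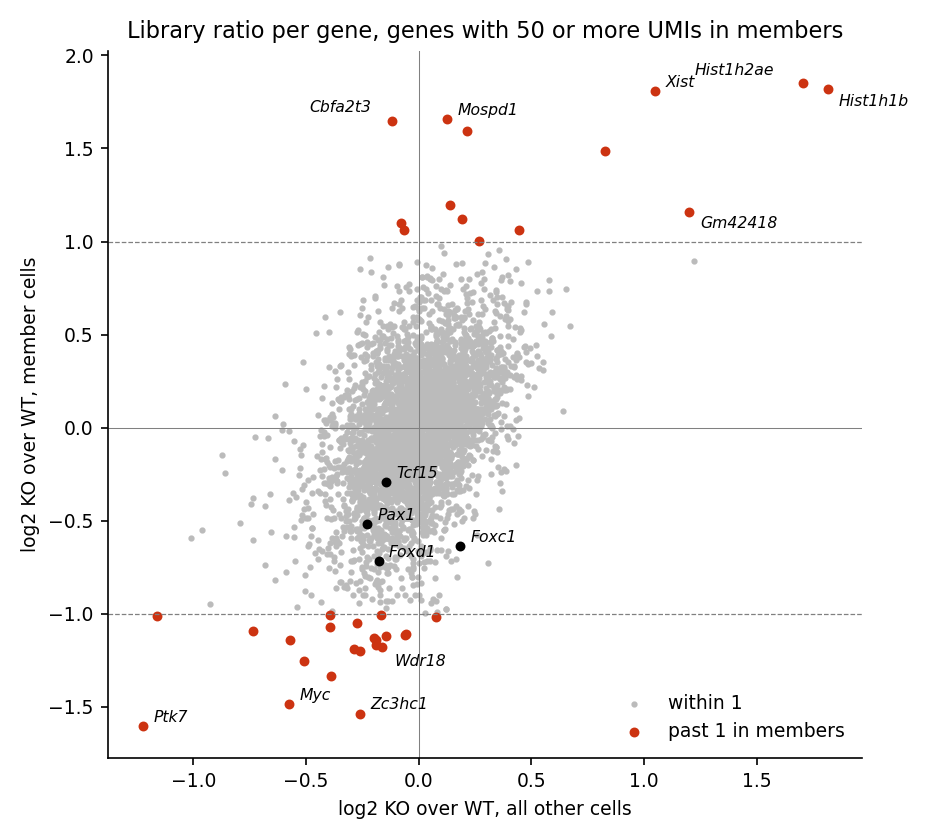
Log2 ratio of KO over WT of each gene with at least 50 UMIs in members, in member cells (vertical axis) against all other cells (horizontal axis). Red points are the genes past 1 in members (dashed lines), and black points are 4 genes within 1 that the text names. Ptk7, Hist1h1b, Hist1h2ae, Gm42418 and Xist were among the 6 genes past 1 in the same direction on both axes.

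Among the pathway lists, cardiac muscle genes were higher in KO members (log2 0.49, 0.34 to 0.63) and lower in other KO cells (−0.24). As given above, 7 cells per library held 44.3% and 58.4% of those UMIs. The sign turned with 3 or more markers asked (−0.23) and without Foxc2 in the rule (−0.0092), and it was 0.074 without members that had 10 or more cardiac or endothelial UMIs. The fibronectin gene Fn1, a matrix glycoprotein of mesenchyme and somite boundaries, had 314 CPM in WT members and 530 in KO members (0.76, 0.48 to 1.04; other cells −0.06). The retinoic acid list was at 0.26 (0.13 to 0.39; other cells 0.14; −0.088 without Meox1 in the rule), with Crabp1 at 0.43, and Aldh1a2 on the opposite side at −0.70 (−1.28 to −0.13). The Notch list was at −0.40 (−0.56 to −0.25; other cells −0.35), of which Notch2 carried most, with 537 and 300 UMIs (−0.74; other cells −0.68), while the median of its 6 genes was 0.25. The hedgehog list was at −0.08 (−0.23 to 0.06; other cells −0.10) and the BMP list at 0.07 (−0.09 to 0.24; other cells −0.19). After thinning to 1000 UMIs the hedgehog list was at −0.37 (−0.70 to −0.05) and the BMP list at −0.32 (−0.71 to 0.055). In cells of 1000 to 2500 UMIs the BMP list was at −0.092 (−0.31 to 0.12). The Wnt list was at −0.18 (−0.34 to −0.02; other cells −0.097), and its sign turned with 3 or more markers asked (0.22). The FGF list was at −0.22 (−0.39 to −0.04; other cells −0.24), and its sign turned after thinning to 1000 UMIs (0.063). General matrix was at −0.02 (−0.12 to 0.08), against −0.26 in other cells. Without Foxc2 in the rule it was at −0.30 (−0.46 to −0.15), and without members that held markers of another cell type, as above, at −0.24. The S phase list stood at 0.08 (0.01 to 0.16; other cells 0.05), with the sign turned with 3 or more markers asked (−0.16) and after thinning (−0.038). The G2 and mitosis list stood at 0.09 (0.04 to 0.14; other cells 0.11). Globin genes summed to 6019 CPM in WT members and 3350 in KO members (−0.85; other cells −0.95; 0.014 without Meox1 in the rule), and the part of this difference in the other ratios was not tested.

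Hox genes mark position along the body axis, lower paralogue groups being expressed from further forward. In WT members groups 1 to 4 held 233 UMIs (420 CPM, interval 368 to 478) and groups 5 to 13 held 69 (124 CPM, 96.8 to 157). In KO members they held 160 (309 CPM, 263 to 361) and 36 (69.6 CPM, 48.8 to 96.4). The most abundant were Hoxb3 with 99.2 and 63.8 CPM, Hoxa3 with 82.9 and 58.0, and Hoxb2 with 55.9 and 60.0. Groups 6, 7, 9 and 10 had at most 3 UMIs in any library. The KO over WT ratio on the log2 scale was −0.44 (−0.74 to −0.14) for groups 1 to 4 and −0.84 (−1.46 to −0.24) for groups 5 to 13, with −0.17 and −0.89 in other cells. Without Pax1 in the rule groups 5 to 13 were at −1.68 (−2.56 to −0.88). Groups 1 and 2 had ratios near 0 with wide intervals (−0.03, −0.96 to 0.89, and 0.00, −0.63 to 0.64), and groups 4 and 5 were each at 93.8 CPM in WT and 52.2 in KO. Whether the dissected stretch ended at the same level in both libraries cannot be told apart from genotype.

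**Figure D5:**
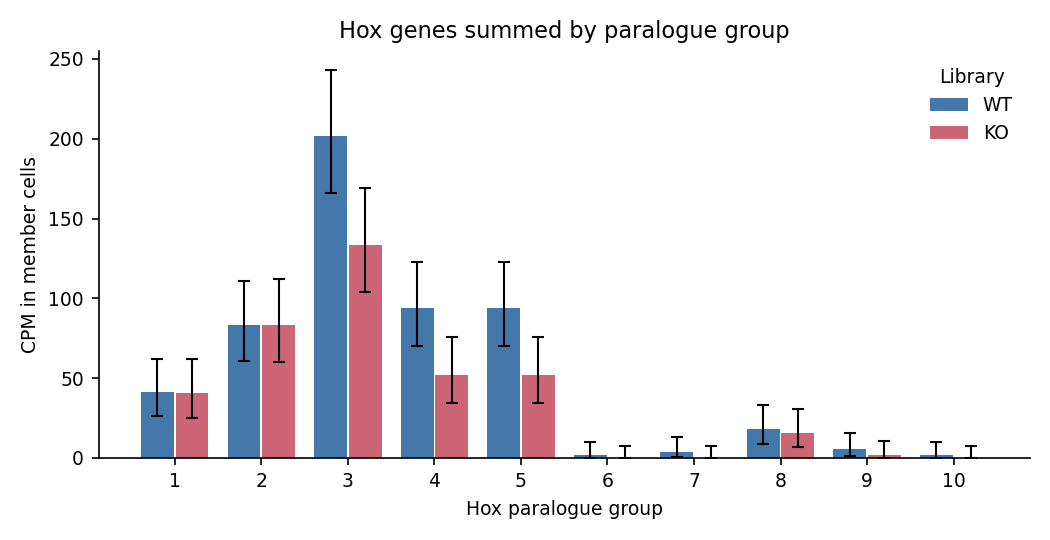
CPM of Hox genes summed by paralogue group in member cells of the WT and KO libraries, with exact Poisson 95% intervals. Group 3 was the highest in both libraries, and groups 3, 4 and 5 had lower sums in KO.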

How the data were processed

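Single-cell RNA-seq was available for 1 WT and 1 KO library of E9.5 mouse tissue. Per the submitters' processing notes, the authors used Cell Ranger 1.3.1, Scanpy and the mm10 build; in the methods the reference is a human genome to which ZsGreen1 was added, whereas mouse symbols were deposited; the annotation release is not given in the sources used here. The authors removed cells with few or very many UMIs and few genes, and mitochondrial and ribosomal UMIs. The deposited values are UMI counts divided by the total of the cell, multiplied by a constant and square-root transformed, and are thus not counts as such. Each value was squared and divided by the smallest nonzero square of its cell. This gave whole UMI counts for 100% of values within 0.01. The study used DoubletFinder and a limit on high UMI counts against doublets, and no doublet caller was run here.

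Members were the cells with a UMI in 2 or more markers and none in the 8 excluded genes. Nkx3-2, the sixth marker of the rule, was not analysed here, so the rule was applied to 5 markers. UMIs were summed over cells per library and expressed as CPM with exact Poisson intervals. Ratios of KO over WT carry exact conditional (Clopper-Pearson) intervals. The interval of a difference between 2 log2 ratios and of a ratio of shares is a normal approximation on the log scale. Ratios within a library had 10 CPM added to each side, which understates the ratio of low genes. Genes needed 50 UMIs, and a call meant 2-fold. No test over cells was made, in contrast to the study. Named genes were the markers and excluded genes, the marker paralogues, Prdm6 and Tbx18, the called genes with the largest ratios (up to 20 higher and 5 lower for members against other cells, 12 and 12 for KO over WT, 10 and 10 or 5 and 5 for splits of members) and the genes with most UMIs in each list; a few genes that this rule picks are not reported here, and further genes, such as Tulp3, Fn1 and Aldh1a2, were named after their values were seen. The members, lists and comparisons were chosen with earlier results of these data known. Gene positions are from GENCODE vM21 (GRCm38), in which 17917 symbols were found and 214 were not; promoters are from RefSeq (GRCm38.p6). Analyses used Python 3.11.15, NumPy 2.4.6, SciPy 1.17.1 and pandas 2.3.3, and were tested on simulated counts. Other gates, scalings, filters and pseudocounts were tried as alternatives.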

Additional observations from a re-analysis of the deposited data

How the results depend on the processing

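No paired analysis was possible because each genotype has 1 library, and no library could be left out for the same reason. The planned gate without members holding 2 or more markers of any other cell type was not run, as it left 3 WT and 11 KO members. The gates on other cell types, on Meox1 with Foxc2 alone and on globin-rich cells, and the Uncx alternatives, were chosen after seeing the data. Genes named for KO over WT stayed past 2-fold in the same direction in 396 of 454 alternative values, and genes named for members over other cells in 140 of 204. Causes of the following shifts were not tested. The log2 ratio of shares was −0.47 with 3 or more markers and −0.25 without Meox1. Genes higher in members than in other cells numbered 18 with 1 CPM added, 1 with 50 CPM, 0 after thinning, 13 with no exclusion, without cardiac- or endothelial-rich members, or without Meox1, and 2 without members with 2 or more markers of 1 other cell type (erythroid and cardiac lists aside). That last gate also drops cells by the head mesoderm list, which holds Foxd1 and Stra6. Genes lower numbered 2 with 50 CPM, 0 in cells of 1000 to 2500 UMIs, 12 with no exclusion, 13 without cardiac- or endothelial-rich members, 1 without other-type members and 2 without Meox1. Genes higher in KO members numbered 7 with 3 or more markers and at 100 UMIs, 123 at 20 UMIs, 600 with no filter, 8 after thinning, 9 without other-type members and 22 without Pax1. Genes lower in KO members numbered 5 with 3 or more markers and at 100 UMIs, 158 at 20 UMIs, 707 with no filter, 10 after thinning and without other-type members, and 38 by the mean over cells. For Pax1 against Tcf15 or Meox1 members, the higher genes numbered 2 with 50 CPM, without Meox1 and Foxc2 alone, without Meox1 and without Tcf15, 0 at 100 UMIs, 35 at 20 UMIs and 12 without Foxc2. The lower genes numbered 8 with 50 CPM, 5 at 100 UMIs, 167 at 20 UMIs, 18 after thinning, 75 with no exclusion, 20 without other-type members, 10 without Meox1 and Foxc2 alone, 73 without Foxc2, 0 without Meox1 and 12 without Tcf15. For Uncx members, the higher genes numbered 1 with 50 CPM and at 100 UMIs, and the lower genes 40 with 1 CPM, 1 with 50 CPM and 2 at 100 UMIs. For KO over WT sums, sclerotome genes were at −0.081 with 3 or more markers and −0.079 without other-type members, head mesoderm genes at −1.26 after thinning, and Hox groups 5 to 13 at −1.68 without Pax1. After thinning the hedgehog list was at −0.37 and the BMP list at −0.32. The sign turned for Dqx1 without Foxc2 (−0.35), the FGF list after thinning (0.063), the S phase list with 3 or more markers (−0.16) and after thinning (−0.038), the Wnt list with 3 or more markers (0.22), and the chondrogenic list after thinning (0.13), with no exclusion (0.023) and without other-type members (0.065). It also turned for the dermomyotome and myotome list with 3 or more markers (−0.055), after thinning (−0.32) and without Foxc2 (−0.0086), the globins without Meox1 (0.014), the cardiac list with 3 or more markers (−0.23) and without Foxc2 (−0.0092), and the retinoic acid list with 3 or more markers (−0.067) and without Meox1 (−0.088).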
